A study of Ovis aries with 49 samples.

Results

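PEG3, the paternally expressed gene 3, was followed in fetal sheep (Ovis aries) at every single-nucleotide polymorphism (SNP) that allele lists deposited from RNA sequencing assign to it. The lists hold 39974 entries of 7164 genes, an entry being 1 SNP in 1 library with its paternal and maternal reads. PEG3 made up 98 of these entries, at 6 SNPs in 36 of the 45 fetal libraries. Western white-faced ewes were mated with Dorset rams and fed from day 30 of gestation at 60% (restricted), 140% (overfed) or 100% (control) of the recommended digestible nutrients. Brain, kidney and lung were taken at day 135 from 4 restricted, 4 overfed and 7 control fetuses of 12 ewes and 4 rams. All rams were of 1 breed and all ewes of another, and no reciprocal cross was made.

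PEG3 encodes a large nuclear protein with many zinc fingers that binds DNA. In mammals studied so far the copy inherited from the father is transcribed, while the promoter of the mother's copy is methylated and silent. In mice the gene has been tied to fetal growth, maternal care, fat storage and cell death pathways, and it is known for expression in brain, placenta and muscle. Transcripts that carry the base of the father can be told from those of the mother only where a fetus is heterozygous and the father's base is known.

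The PEG3 SNPs lay on chromosome 14 between 60912163 and 60913558, a stretch of 1396 bases, on the RefSeq sequence of the deposited lists. The sources used here do not name the genome build. The SNPs are written with the reference base, the position and the alternative base, and all belong to 1 annotation record. Fetuses were informative, that is heterozygous with a known paternal base, at 8 SNPs, in 45 combinations of SNP and fetus. G60912163A was informative in 12 fetuses of 4 rams, and T60912722C and C60912731T in 11 fetuses of 2 rams each. C60912869G was informative in 3 fetuses, as was A60913558G, and T60912866C in 2. G60913529C (2 fetuses) and A60913531G (1 fetus) were informative but never listed. Of the 8 changes, 6 were transitions. Overfed fetus 1 had no informative PEG3 SNP, which left 14 of 15 fetuses. Whether these positions are exonic, intronic or in a UTR was not analysed here.

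The paternal allele outnumbered the maternal one at all 98 entries. Summed over them there were 10140.5 paternal and 1610.5 maternal reads, so 13.7% of the reads carried the maternal base. Fractional reads arise because the authors averaged the coverage of 2 alignments, and a read over 2 SNPs can count at both. The paternal share of an entry had a median of 86.4%. It ranged from 71.7% at C60912869G in brain of control fetus 2 to 97.9% at C60912731T in lung of restricted fetus 3. Only 4 entries exceeded 95%, 14 exceeded 90% and 6 were below 80%. The lists contain a SNP only with at least 20.5 reads and at least 70.02% of them on 1 allele, so a share near 50% could not appear, whereas the side was free to vary. At every PEG3 entry the father had passed on the reference base and the mother the alternative one. Parent of origin and base therefore cannot be told apart at this gene. Among the other autosomal entries with a paternal reference base, the paternal side was the higher one in 39.2% in brain, 41.8% in kidney and 42.6% in lung. With a paternal alternative base it was the higher one in 49.2%, 47.5% and 50%.

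In brain PEG3 was listed in 8 fetuses. The paternal share, from reads summed over the listed SNPs of a library, was 86.7% and 80.9% in restricted fetuses 1 and 4 and 87.9% in overfed fetus 4. Control fetuses 1, 2, 5, 6 and 7 had 88.4%, 78.0%, 86.0%, 83.8% and 94.7%. The values of the 3 diets overlapped, and both extremes of brain were control fetuses. The lowest, control fetus 2, rested on 35.5 paternal and 10 maternal reads (95% Clopper-Pearson interval 63.6% to 89.1%), and the highest, control fetus 7, on 62 paternal and 3.5 maternal reads (85.2% to 98.3%). Such intervals cover counting error only. They take reads summed over SNPs as separate, so they are too narrow where 1 read covers 2 SNPs.

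Kidney gave the narrowest values, in 14 fetuses. Restricted fetuses 1 to 4 had paternal shares of 86.5%, 86.2%, 86.4% and 85.8%. Overfed fetuses 2, 3 and 4 had 85.4%, 89.98% and 87.4%. Among the 7 control fetuses the lowest share was 85.6%, the median 86.1% and the highest 92.3%. Apart from the highest control value and overfed fetus 3, all kidney shares lay between 85.4% and 88.3%. Lung, also in 14 fetuses, was more scattered. Restricted fetuses 1 to 4 had 86.8%, 87.95%, 94.2% and 85.6%, and overfed fetuses 2, 3 and 4 had 86.9%, 78.9% and 89.0%. Control lungs ran from 80.5% through a median of 84.5% to 89.0%. The highest lung value belonged to a restricted fetus and the lowest to an overfed one, and the diets overlapped. Kidney had 7374.5 paternal and 1153 maternal PEG3 reads, lung 2056 and 341.5, and fewer reads give more counting error. The part of depth in the spread was not tested.

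**Figure D1:**
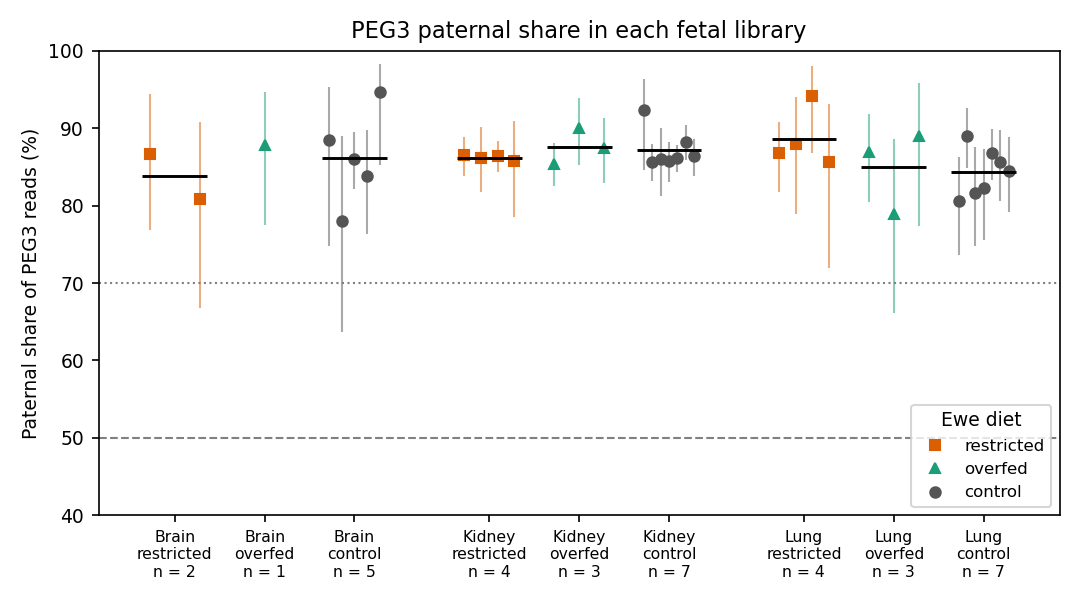
PEG3 paternal share in percent (vertical axis, shown from 40%) in each of the 36 libraries, by tissue and ewe diet; points are fetuses, thin lines 95% Clopper-Pearson intervals, black bars group means where n is above 1, the dashed line 50% and the dotted line the 70% limit of the lists. Every point lies above 70%, from 78.0% to 94.7%, and the kidney points are the closest together. Kidney also had the most PEG3 reads. The intervals take reads summed over SNPs as separate.

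The mean paternal share was 85.8% ± 5.06 in brain (SD, n = 8), 87.0% ± 1.96 in kidney (n = 14) and 85.7% ± 3.96 in lung (n = 14). Tests were run on the logit, ln((paternal + 0.5)/(maternal + 0.5)) in reads, fitted with limma over all genes listed in at least 3 fetuses. The mean logit was 1.82 ± 0.159 (SE) in brain, 1.90 ± 0.0561 in kidney and 1.80 ± 0.0933 in lung. PEG3 passed against 0 with limma's Benjamini-Hochberg adjusted p of 1.25e-05 in brain, 3.75e-12 in kidney and 5.15e-10 in lung, paternal in 8 of 8, 14 of 14 and 14 of 14 fetuses. Such calls were common in these lists. In brain 65.5% of 863 genes passed, 20.9% as paternal and 44.6% as maternal. Kidney had 66% of 1047 genes passing, 22% paternal and 44% maternal, and lung 60.9% of 1476, 21.7% paternal and 39.2% maternal. In kidney PEG3 had the lowest adjusted p of all 1047 genes, whereas it ranked 123 in brain and 30 in lung. By size it stood lower, since 39 kidney genes had a larger mean paternal logit, as did 45 in brain and 55 in lung.

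Each PEG3 SNP was also followed by itself. G60912163A had a paternal share of 87.6% ± 5.13 in brain (SD, n = 6), 86.5% ± 2.95 in kidney (n = 12) and 84.4% ± 5.52 in lung (n = 12). T60912722C had 85.4% ± 2.71 in brain (n = 3), 87.9% ± 3.02 in kidney (n = 11) and 86.4% ± 6.09 in lung (n = 11). For C60912731T the shares were 85.1% ± 3.18 in brain (n = 4), 87.4% ± 1.85 in kidney (n = 11) and 86.5% ± 5.24 in lung (n = 11). The means of these 3 SNPs thus stayed within a few percentage points of each other in every tissue. C60912869G had brain shares of 83.9% in restricted fetus 1 and 71.7% and 80% in control fetuses 2 and 5, on 28, 23 and 60 reads. Its means were 85.3% ± 1.25 in kidney and 85.8% ± 1.93 in lung (n = 3 each), and each of the 3 fetuses was lower in brain than in its own kidney or lung. T60912866C was seen only in control fetuses 5 and 7, littermates by the animal numbers. It had 87.9% and 96.7% in their brains, against 86.4% and 82.3% in their kidneys, and their lungs had 86.0% and 84.6%. A60913558G was listed in kidney alone, at 80.5% in overfed fetus 4 on 38.5 reads and at 84.1% in control fetus 6 on 34.5 reads. Its mean of 82.3% was the lowest of any SNP in kidney, and in both libraries it was under every other listed SNP (88.6% in overfed fetus 4, 87.2% to 90.7% in control fetus 6). In each tissue 4 SNPs had at least 3 fetuses, and each of these passed limma's test as paternal over all SNPs of the tissue, with adjusted p from 7.24e-11 (C60912731T, kidney) to 0.00213 (C60912869G, brain). Of all SNPs tested, 33.7% of 683 were called paternal in brain, and kidney had 34.3% of 878 and lung 37.6% of 1319.

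**Figure D2:**
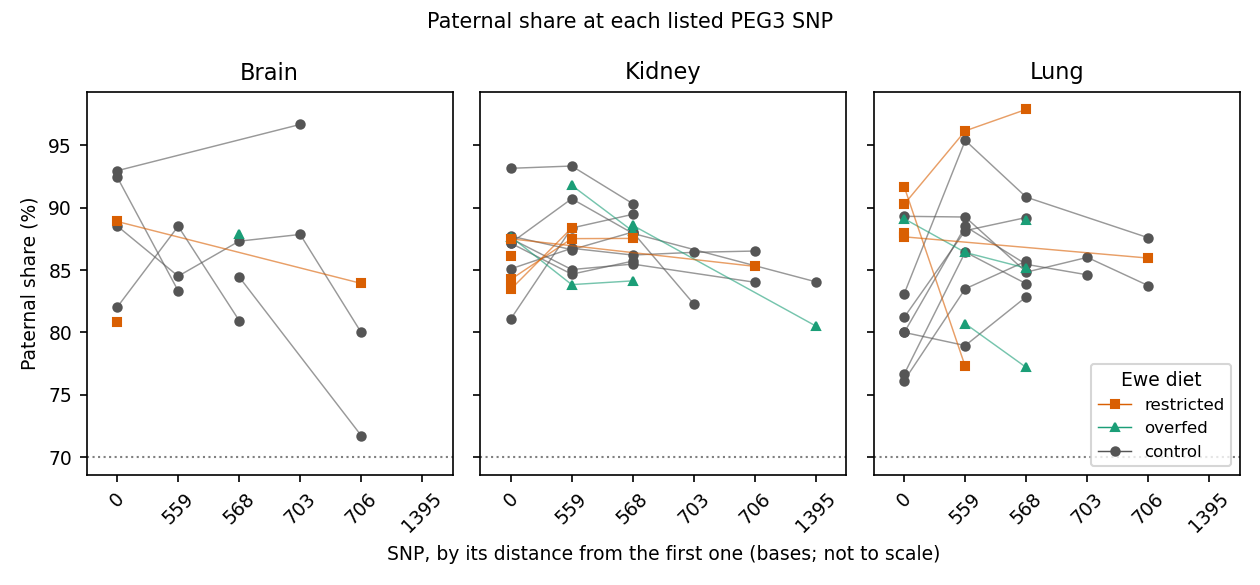
Paternal share in percent at each listed PEG3 SNP (vertical axis) in brain, kidney and lung; SNPs are ordered by distance in bases from the first one, evenly spaced, lines join the SNPs of 1 library and the dotted line is the 70% limit of the lists. The 98 entries run from 71.7% to 97.9%, and in kidney the last SNP is at 80.5% and 84.1%, the lowest point of both its libraries.

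SNPs of the same library were compared directly in the 4 pairs seen together in at least 3 fetuses. G60912163A minus T60912722C, which are 559 bases apart, differed by -1.77 percentage points ± 4.51 (SD, n = 10 fetuses, adjusted p = 0.310 by an exact sign-flip permutation test of the logit, two-sided). G60912163A minus C60912731T, 568 bases apart, gave -2.26 points ± 3.55 (n = 9, exact adjusted p = 0.289). In lung alone the second of these differences was -4.44 points, lower at G60912163A in 7 of 9 fetuses, with an exact adjusted p of 0.234. T60912722C and C60912731T lie 9 bases apart, so that 1 read can cover both, and differed by 0.85 points ± 1.67 (n = 10, exact adjusted p = 0.289). The pair with C60912869G had 3 fetuses, for which the smallest exact p is 0.25. No pair passed. The pooled SD between SNPs of a library was 4.73 points in brain, beside an SD between libraries of 5.06. Kidney had 2.53 and 1.96 points and lung 4.21 and 3.96. The 2 SDs are unlike measures and cannot be ranked. The first is over shares of single SNPs, which rest on fewer reads, in libraries with more than 1 SNP. The second is over shares from summed reads, in all libraries with PEG3.

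The same fetuses gave all tissues, which allowed the share to be compared within an animal at SNPs listed in both tissues. The share was lower in brain than in kidney in 6 of 8 fetuses, with mean shares of 85.8% ± 5.06 in brain and 87.1% ± 3.03 in kidney (SD, n = 8). The difference was -1.28 points ± 4.91. Higher in brain were control fetus 7, at 94.7% in brain and 85.5% in kidney, and restricted fetus 1, at 86.7% in brain and 86.5% in kidney. Brain minus lung was -0.54 points ± 8.26 (n = 8), lower in brain in 6 fetuses. Kidney minus lung was 1.41 points ± 5.20 (n = 14), higher in kidney in 7 fetuses and in lung in 7. Over all libraries, limma's difference in logit was -0.09 ± 0.149 (SE) for brain minus kidney (adjusted p = 0.797), 0.01 ± 0.150 for brain minus lung (adjusted p = 0.969) and 0.10 ± 0.126 for kidney minus lung (adjusted p = 0.897). These fits took the tissues of a fetus as separate libraries, and no tissue difference in share passed. Of all genes tested, 11.6% passed for brain minus kidney, 15% for brain minus lung and 0.407% for kidney minus lung.

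**Figure D3:**
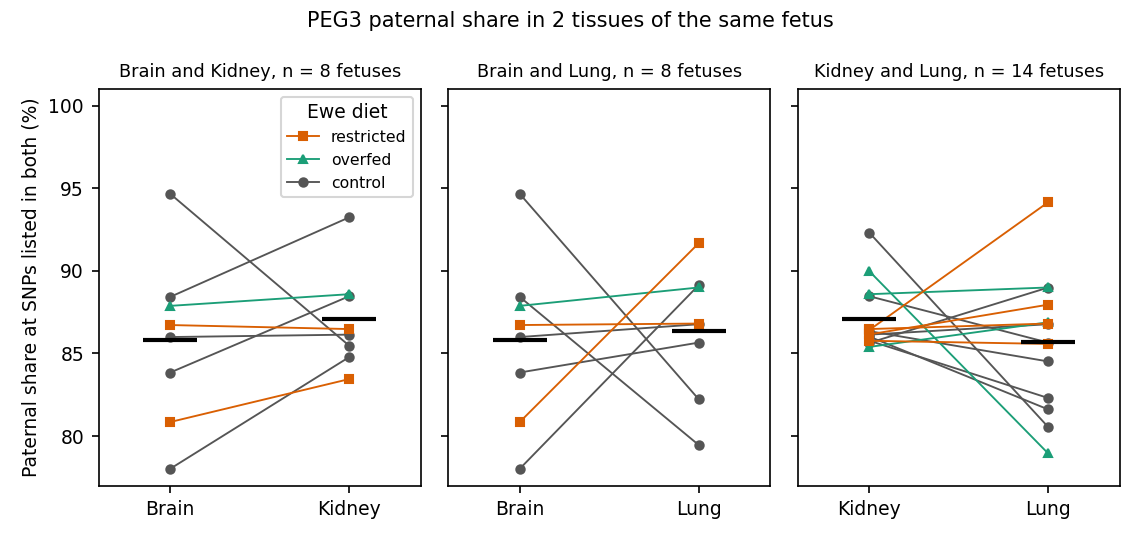
PEG3 paternal share in percent (vertical axis, shown from 77%) at SNPs listed in both tissues of a fetus; each line is 1 fetus and black bars are means. Brain lies under kidney in 6 of 8 fetuses, and the lines between kidney and lung run both ways, 7 down and 7 up.

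The lists give a view of the level of PEG3 through its coverage, the reads of both alleles per listed SNP. Each library was brought to a common scale with the median ratio of 68 widely listed genes. Coverage exists only where a SNP was listed, and in bulk tissue fewer expressing cells and less RNA per cell cannot be told apart. Kidney stood far above both other tissues. Scaled reads per PEG3 SNP ran from 31.4 through a median of 45.0 to 60.8 in brain, from 75.3 through 205 to 355 in kidney and from 32.6 through 46.2 to 87.1 in lung. The brain and kidney ranges did not overlap, the kidney and lung ranges met only between 75.3 and 87.1, and brain and lung overlapped widely.

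The coverage fits, too, took the tissues of a fetus as separate libraries. On the log2 scale of reads per SNP + 1, brain minus kidney was -1.996 ± 0.216 (SE, n = 8 and 14, limma adjusted p = 3.41e-09), which is 3.99-fold more in kidney than in brain. Kidney minus lung was 1.99 ± 0.184 (n = 14 each, adjusted p = 1.70e-10), a 3.98-fold higher level in kidney. Brain and lung did not pass (adjusted p = 0.993), and without scaling brain minus lung was -0.495. Brain coverage exists for 8 of 14 informative fetuses, since a SNP with too few reads or a balanced share is unlisted. Among all genes, 33.8% of 465 passed for brain minus kidney, 11.6% with the lower value in brain. For kidney minus lung 20.3% of 738 passed, 11.4% with the higher value in kidney, and for brain minus lung 43.8% of 512 passed. The median gene moved by 0.16, 0.11 and 0.29 on the log2 scale for brain minus kidney, kidney minus lung and brain minus lung, and relative to it PEG3 was 4.44-fold higher in kidney than in brain and 3.70-fold higher in kidney than in lung. At SNPs listed in both tissues of a fetus, kidney exceeded brain in 8 of 8 fetuses and lung in 14 of 14. Brain exceeded lung in 2 of 8 fetuses, with a mean log2 difference of -0.18 ± 0.650 (SD). Within kidney libraries PEG3 had more reads per SNP than 73.7% to 99.6% of the listed genes (median 97.9%), against a median of 65.2% in brain and 83.2% in lung.

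**Figure D4:**
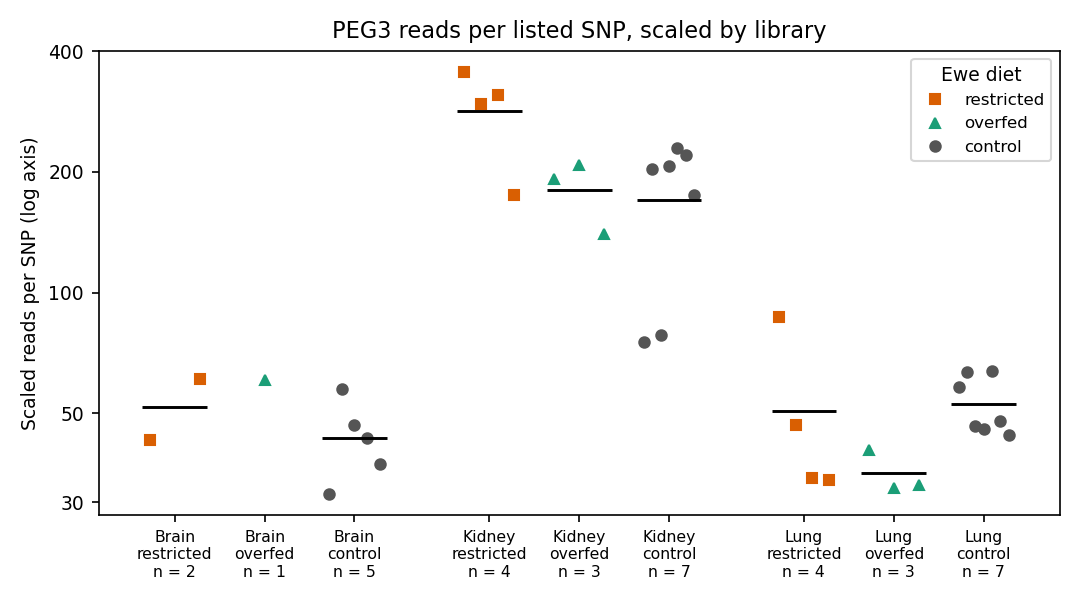
Scaled reads per listed PEG3 SNP (vertical log axis) by tissue and ewe diet; points are fetuses and bars are arithmetic means where n is above 1. Kidney values run from 75.3 to 355, and overfed lungs (32.6 to 40.5) lie below control lungs (44.1 to 63.8).

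Reads were not spread evenly over the SNPs. In kidney of control fetus 6, A60913558G had 34.5 reads, whereas the other 3 SNPs of that library had 228 to 307.5. In kidney of overfed fetus 4 it had 38.5 reads against 219 at C60912731T. It was thus covered 7.41 and 5.69 times less than the others, and it was not listed in brain or lung, where its fetuses were equally informative. The SNPs beside it, G60913529C and A60913531G, were listed in no tissue. Without A60913558G, an alternative chosen after its values were seen, brain minus kidney was -2.08 and kidney minus lung 2.07 on the log2 scale.

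**Figure D5:**
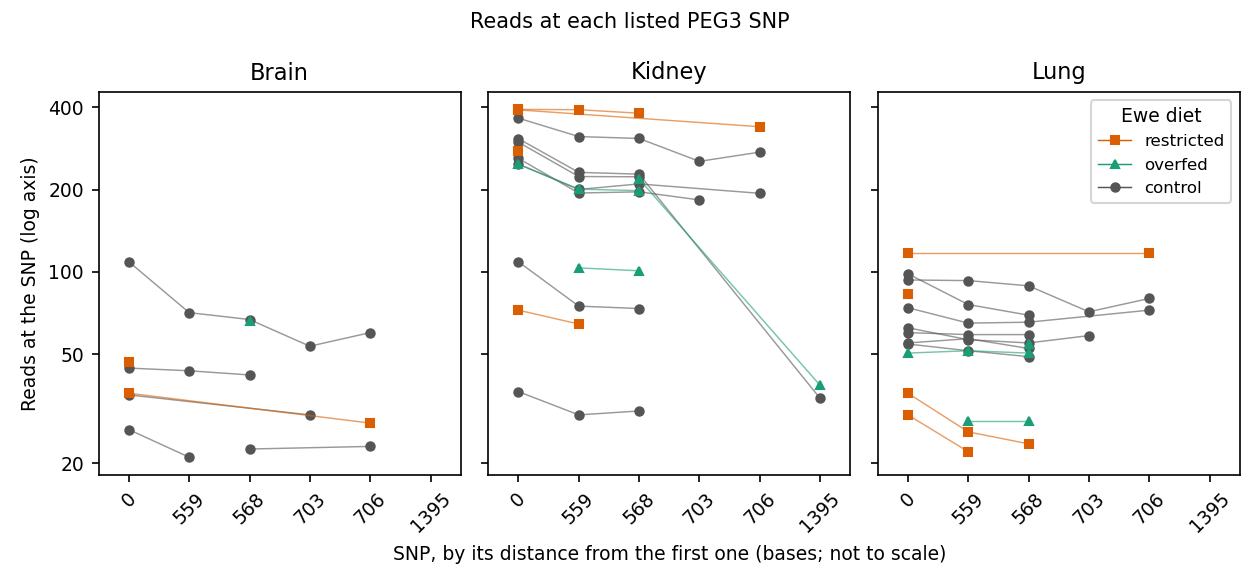
Reads at each listed PEG3 SNP (vertical log axis, unscaled) in brain, kidney and lung; SNPs are ordered by distance in bases from the first one, evenly spaced, and lines join the SNPs of 1 library. In kidney the last SNP has 34.5 and 38.5 reads, in libraries whose other SNPs have 219 or more.

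Listing itself differed between tissues. Of the 45 informative combinations of SNP and fetus, 40% were listed in brain, where all genes together had 2.20% listed. Kidney had 91.1% for PEG3 and 2.62% for all genes, and lung 86.7% and 3.65%. In kidney and lung the 5 SNPs from G60912163A to C60912869G were listed in every informative fetus, 39 entries in lung, so the limit of 70% removed no fetus there. By fetus, PEG3 was listed in 8 of 14 brains, 14 of 14 kidneys and 14 of 14 lungs. Brain differed from kidney and from lung by an exact McNemar test (two-sided, p = 0.03125, adjusted p = 0.046875 in both comparisons). Both calls were lost (adjusted p = 0.09375) without any 1 of the 6 fetuses unlisted in brain, which were restricted fetuses 2 and 3, overfed fetuses 2 and 3 and control fetuses 3 and 4. A SNP is unlisted for too few reads or for a balanced share, and the lists do not tell these apart. The 8 brain libraries with PEG3 listed held 10477 to 82301 reads in all (median 34917), and the 6 without it 16762 to 26038.5 (median 20345). The part of depth in the brain result was not tested.

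The study asked whether the diet of the ewe changes imprinting. For PEG3 no diet difference in paternal share passed in any tissue. Littermates were averaged first, because the ewe was fed, which gave 2 restricted, 1 overfed and 3 control ewes in brain and 4 restricted, 3 overfed and 4 control ewes in kidney and in lung. In kidney the mean share was 86.2% ± 0.323 in restricted, 87.6% ± 2.30 in overfed and 86.7% ± 1.17 in control ewes (SD). In lung it was 88.6% ± 3.81, 84.9% ± 5.30 and 84.6% ± 3.11 for restricted, overfed and control ewes. In brain it was 83.8% ± 4.15 in restricted and 83.9% ± 5.83 in control ewes, with 87.9% in the 1 overfed ewe. The diet values overlapped in each tissue. All control fetuses were of rams 3 and 4, whereas restricted fetuses 1 and 2 were of rams 1 and 2. For these 2 fetuses diet and ram cannot be told apart in the contrasts with control.

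The largest diet difference in share was restricted minus control in lung, a logit difference of 0.34 ± 0.253 (SE, limma adjusted p = 0.930). It was 0.13 without restricted fetus 3, whose lung share of 94.2% rested on 80.5 paternal and 5 maternal reads. With G60912163A alone, the most widely listed SNP, it was 0.66 ± 0.162 (unadjusted p = 0.00395, limma adjusted p = 0.766). Overfed minus restricted in lung was -0.33 ± 0.276 (adjusted p = 0.848). In kidney the differences were smaller, -0.06 ± 0.137 for restricted minus control (adjusted p = 0.945) and 0.07 ± 0.142 for overfed minus control (adjusted p = 0.958). Restricted minus control was called in 0% of genes in brain and kidney and 0.258% in lung, overfed minus control in 0% in kidney and lung, and overfed minus restricted in 0% of both. At an unadjusted p under 0.05, limma had 4 of 196 genes for restricted minus control in brain, beside 10 of 304 in kidney and 12 of 388 in lung. For overfed minus control it had 16 of 243 in kidney and 12 of 476 in lung, and for overfed minus restricted 6 of 180 and 15 of 347. The diet contrasts in share were also compared between tissues, and no such difference passed for PEG3 (limma adjusted p from 0.765 to 0.997). These differences were called in 0% of genes, with 3 to 10 genes at an unadjusted p under 0.05.

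Coverage by diet did not pass over all genes either. In kidney, restricted fetuses 1 to 4 had 355, 295, 311 and 175 scaled reads per SNP. Overfed fetuses 2, 3 and 4 had 192, 207 and 140. Control kidneys ran from 75.3 through a median of 203 to 230. Of the restricted kidneys 3 lay above every control kidney and restricted fetus 4 lay among them. Of those 3, restricted fetuses 1 and 2 were of rams without a control fetus, and restricted fetus 3 was of ram 3. By ewe, restricted minus control was 0.88 ± 0.321 on the log2 scale (SE, 1.84-fold), with an unadjusted p of 0.0183 and a limma adjusted p of 0.836. An exact permutation test of PEG3 alone gave p = 0.0857 (0.533 when adjusted over the 14 diet tests of PEG3). The difference was 0.57 without control fetus 3 and 1.09 without restricted fetus 4. Kidney overfed minus control was 0.25 ± 0.350 (adjusted p = 0.947), but -0.09 without scaling and 0.46 without A60913558G. Overfed minus restricted was -0.63 ± 0.350 (adjusted p = 0.983), and -0.37 without that SNP. No coverage call was made for any gene in kidney (0%). At an unadjusted p under 0.05, limma had 15 of 304 genes for restricted minus control, 17 of 243 for overfed minus control and 3 of 180 for overfed minus restricted. In brain, restricted fetuses 1 and 4 had 42.9 and 60.8 scaled reads per SNP, overfed fetus 4 had 60.4, and the 5 control fetuses had 31.4 to 57.7. Restricted minus control there was 0.16 ± 0.290 (adjusted p = 0.967), with 0% of 196 genes called and 11 at an unadjusted p under 0.05.

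In lung, overfed fetuses 2, 3 and 4 had 40.5, 32.6 and 33.2 scaled reads per PEG3 SNP, against 44.1 to 63.8 in the control fetuses (median 47.8). These groups did not overlap. Restricted lungs had 87.1, 46.6, 34.5 and 34.1 and spanned both. Overfed minus control by ewe was -0.56 ± 0.289 on the log2 scale (SE, 0.678-fold, unadjusted p = 0.0770, limma adjusted p = 0.965). The exact permutation test gave p = 0.0286, the smallest it can give here, and 0.4 when adjusted over the same 14 tests. Overfed minus control coverage in lung was called for 0% of 476 genes, with 22 at an unadjusted p under 0.05. Restricted minus control was -0.16 ± 0.266 in lung (adjusted p = 0.990), so the restricted contrast had opposite signs in kidney and lung. Its difference between kidney and lung was 1.04 ± 0.420, with an unadjusted p of 0.0213 and a limma adjusted p of 0.992 (0% of 205 genes called, 2 at an unadjusted p under 0.05).

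The father and the litter were followed as well, without a test. Kidney shares were 87.3% ± 2.82 in 5 fetuses of ram 3 and 87.0% ± 1.66 in 7 fetuses of ram 4 (SD), and lung shares 86.6% ± 4.95 and 84.6% ± 3.803 for the same rams. In brain they were 89.7% ± 4.47 (n = 3) for ram 3 and 82.6% ± 4.22 (n = 4) for ram 4. By the animal numbers the ram 3 brains were all of 1 litter, whereas the labels speak of twins only. Within that litter of 3 the shares spanned 8.66 points in brain, 6.17 in kidney and 6.22 in lung. The highest PEG3 share of all brains (control fetus 7) and of all kidneys (control fetus 1) was found in it.

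Among 383 autosomal genes with at least 3 listed fetuses in each tissue, those with tissue means of the logit nearest to PEG3 included LOC101107891, ACOT13, HSPA1A and UBB. The distance over the 3 means was 0.19 for LOC101107891, also on chromosome 14, whose paternal share was 86.2% ± 5.30 in brain (n = 5), 86.7% ± 3.92 in kidney (n = 9) and 87.8% ± 5.32 in lung (n = 13). It was 0.20 for ACOT13, a thioesterase of fatty acid metabolism, at 85.2% ± 6.05 (n = 8), 84.4% ± 7.12 (n = 11) and 84.3% ± 9.14 (n = 9) in the same tissues. Both had the reference base on the paternal side at every entry, as PEG3 did. HSPA1A, a heat shock protein, lay at 0.20 and UBB, a ubiquitin gene, at 0.24. Both have near-identical copies or repeats, so the assignment of their reads is uncertain.

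Within 1 Mb of the PEG3 SNPs, 58 genes had an informative SNP, 19 were listed and 4 had at least 3 fetuses in a tissue. LOC101108414 was the nearest listed gene, 66578 bases away, and in another assembly (ARS-UI_Ramb_v3.0) it is placed between ZIM2 and PEG3. It was informative and listed in 1 fetus, in kidney of restricted fetus 2, with 590.5 paternal and 18 maternal reads, a share of 97.0% (95% Clopper-Pearson interval 95.4% to 98.2%). The kidney share of PEG3 in that library was 86.2%. ZFP28, a zinc finger gene 215344 bases away, was called paternal in brain at 68.5% ± 18.5 (n = 7, adjusted p = 0.0329), with 19 of 21 entries on the paternal side. In all 21 the father had passed on the alternative base. In kidney ZFP28 was at 40.5% ± 26.5 (n = 3, adjusted p = 0.549), with 1 of 6 entries on the paternal side. Several entries came from the same fetus, and the tissues were listed in partly different fetuses. Control fetus 2 was on the maternal side in brain (28.6% and 25%) and in kidney (25% and 27.8%). Control fetus 7 was on the paternal side in brain (74.1% and 74.0%) and in kidney (71%). Overfed fetus 2 was listed in kidney only, at 21.7% to 26.3%. CNOT3, a subunit of the complex that shortens mRNA tails, was called maternal in lung, with a paternal share of 17.7% ± 6.44 (n = 5, adjusted p = 7.85e-04). Among all genes tested, 20.9% were called paternal in brain and 39.2% maternal in lung. Of 13 genes of the PEG3 domain in other mammals, 4 were informative and ZNF582 alone was listed, at 72.9% in 1 lung.

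Genes with related roles were seen in few fetuses. Of 30 paternally expressed imprinted genes, PEG3 included, 9 were informative and 7 listed. Each tissue had 2 of them tested, 1 of which was PEG3. Besides PEG3, 1 gene was called paternal in brain and 1 in kidney and none in lung, where 20.9%, 22% and 21.7% of all genes were. INPP5F, an inositol phosphatase, was called in brain at 97.6% ± 0.718 (n = 7), above PEG3 in share. IMPACT, a regulator of translation, was called in kidney at 73.9% ± 2.03 (n = 3), and in lung it was not called (62.2% ± 36.6, n = 3, adjusted p = 0.600). Of 16 genes of pathways tied to the PEG3 protein, 7 were listed and 1 was tested, AXIN2 in kidney, which was not called (41.9% ± 28.7, n = 3, adjusted p = 0.627). Among 13 genes that keep imprints in place, 7 were listed. SETDB1, a histone methyltransferase, was called maternal in every tissue, with paternal shares of 19.7% ± 5.77 in 6 brains, 25.7% ± 20.2 in 10 kidneys and 17.9% ± 6.64 in 13 lungs. DNMT3A, a DNA methyltransferase, was called maternal in lung at 20.3% ± 4.64 (n = 7). Both carried the paternal reference base throughout. Maternal calls were common, at 44.6% of all genes in brain, 44% in kidney and 39.2% in lung. ZFP57, a zinc finger protein that protects imprints, was not called in brain (70.8% ± 19.3, n = 3, adjusted p = 0.133) or lung (37.2% ± 32.5, n = 4, adjusted p = 0.558).

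Libraries held 10477 to 82301 reads at listed SNPs in brain, 6530.5 to 71952.5 in kidney and 31581 to 194732.5 in lung. Of 15 kidney markers 8 were listed in kidney and of 15 brain markers 4 in brain. The lung list had 1 of 11 in lung, and none of 5 blood markers was listed. A marker can be listed only where a fetus carries a suitable SNP, so its absence does not speak to the tissue.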

How the data were processed

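RNA of 45 fetal libraries (poly(A)-selected, paired-end) and DNA of the 4 rams had been sequenced, per the labels' protocols. The deposited values are estimated counts, maternal and paternal, which the authors averaged over alignments to a reference and an alternative genome. The submitters' processing notes list HISAT2 2.0.5, SAMtools, Trimmomatic 0.33 and Picard, with no further parameters. The lists were checked to hold only SNPs with a homozygous ram and at least 70.02% of reads on 1 allele. Informative SNPs came from the ram genotype lists. SNPs with at least 10 reads were used.

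Tests were run across all genes with limma 3.58.1 (R 4.3.3), two-sided, adjusted by Benjamini-Hochberg, with edgeR 4.0.16 on rounded counts as an alternative, and were tested on simulated data. The exact McNemar test and the Clopper-Pearson intervals used SciPy, and the exact sign-flip and permutation tests were written out in R and Python. Tissue contrasts needed 3 fetuses in both tissues, diet contrasts 2 ewes. Samples of a diet with the same number are 1 fetus, by the descriptions. Deviations from group means correlated within a fetus with medians of 0.22, 0.31 and 0.43 over the 3 tissue pairs, against -0.04, -0.03 and -0.05 between fetuses. The ranges overlapped, so single pairings were not settled by this. The lowest values within a fetus were -0.085, -0.122 and 0.007, and the highest between fetuses 0.750, 0.570 and 0.491. Sequencing was done in 3 runs, and the run of each library is not given, so batches could not be separated. Replicates are fetuses. Littermates were taken from the animal numbers, which give a set of 3 and a set of 2 control fetuses, whereas the labels speak of 3 sets of twins. With every fetus as its own unit no PEG3 diet call or direction changed. Named genes were PEG3, its 5 nearest genes by tissue means (1 of them is not reported here), the genes within 1 Mb and the lists. PEG3 and these lists were chosen with earlier results of these data known.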

Additional observations from a re-analysis of the deposited data

Results flagged for a closer look

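The PEG3 paternal share in kidney of control fetus 1, 92.3%, stood apart from the other control kidneys. The nearest of them had 88.3% and the lowest of the 7 had 85.6%. It came from 90 paternal and 7.5 maternal reads summed over 3 SNPs, in the kidney library with the fewest reads (6530.5). A read over 2 of these SNPs can count at both. The interval of the share (95% Clopper-Pearson), 84.5% to 96.4%, takes the reads as separate and reaches the other values. This share was the 1 case among 19 groups examined in this way, and chance gives such a gap in about 1 of 20 groups. Without this fetus the mean kidney logit was 1.86, and the paternal call was kept (adjusted p = 1.32e-12).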

How the results depend on the processing

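Over 52 PEG3 results, 974 values were computed under other settings. Of these 927 kept direction and call, 35 reversed, 12 lost a call and 0 gained one. PEG3 kept its paternal call in every tissue under every setting tried. The value tested ran from 1.68 to 2.40 in brain, 1.62 to 2.45 in kidney and 1.69 to 2.22 in lung. The upper ends came from the setting against the median logit of all genes, where the value is PEG3 minus that median. With edgeR on read sums, the log2 ratios were 2.57, 2.74 and 2.59 in brain, kidney and lung. Kidney coverage stayed called, from -2.10 to -1.91 on the log2 scale for brain minus kidney and from 1.58 to 2.12 for kidney minus lung. The 12 lost calls were those of PEG3 listing, where brain minus kidney and brain minus lung ran from -6 to -5 fetuses when 1 fetus was left out.

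Every reversal was in a result that was not called, and the cause was not tested. Brain minus lung share was -0.00566 with 1 read added to each allele and -0.0121 with mean logits of single SNPs. With the fetus as a replicate block it was -0.000921, and -0.0212 at shared SNPs, in the blocked fit as in the exact sign-flip test. The block changed no other direction and no call, and coverage with it was -2.04 for brain minus kidney and 1.994 for kidney minus lung. Lung overfed minus control share was -0.0125 with 1 read added and -0.0265 with mean logits. At 30 or more reads per SNP, brain minus kidney share was 0.0124, and the overfed minus control contrast differed between kidney and lung by -0.159. Kidney overfed minus control coverage was -0.0937 unscaled and -0.0945 scaled by median reads. Leaving out 1 fetus, share differences ranged from -0.129 to 0.118 for brain minus lung, from -0.286 to 0.0331 for brain restricted minus control, from -0.0387 to 0.167 for kidney overfed minus control and from -0.134 to 0.230 for lung overfed minus control. The tissue differences of diet contrasts in share ranged from -0.195 to 0.114 (restricted minus control, brain minus kidney) and from -0.269 to 0.226 (overfed minus control, kidney minus lung). Coverage ranged from -0.0916 to 0.101 for brain minus lung and from -0.0567 to 0.419 for kidney overfed minus control.

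Counts of called genes moved more. In brain 565 genes were called, against 354 at 30 or more reads per SNP and 306 with at least 5 fetuses. In kidney there were 691, against 427 and 347, and 1197 with at least 2 fetuses. In lung there were 899, against 536 with at least 5 fetuses. The 18 PEG3 entries in brain held 21 to 109 reads.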
